A study of Mus musculus with 6 samples.

Results

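The genes described here encode the machinery that copies DNA in S phase and the regulators of entry into S phase. They are a list of 44 genes named by function. The rule that picks them uses no measured value, although the list was drawn up with earlier results of these data known. Of the 44, 43 had a probe set of their own on the array, out of 18193 genes. The 43 genes were covered by 92 of the 45037 probe sets tested. Each gene was read by its brightest probe set (highest mean over the 6 arrays), and the 49 other probe sets of these genes are described separately. Chaf1a, a subunit of the chromatin assembly factor CAF-1, had no probe set assigned to it alone and was not analysed here.

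RNA came from MC3T3-E1 cells, subclone 4, a mouse pre-osteoblast line from calvaria that makes a collagen matrix once ascorbic acid (AA), the cofactor of collagen hydroxylation, is added. There were 3 AA-treated cultures, given AA at 50 µg/ml for 5 days (the labels give the amount and the methods the volume), and 3 control cultures left untreated for the same 5 days, all in the same medium and in 6-well plates. All 6 cultures come from 1 cell line, and the labels do not say what separates the replicates, while the study's text speaks both of triplicate experiments and of triplicates in plates. Unless these were separate experiments, p-values measure only the spread between these arrays, which may be technical. Each culture was hybridised to an Affymetrix Mouse Genome 430 2.0 array, and the values are MAS5 signals on a linear scale.

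Before S phase, the origin recognition complex, Cdc6 and Cdt1 load the Mcm2-7 ring onto origins. At the start of S phase, cyclin E with Cdk2, together with a second kinase, turns the ring into the active helicase by adding Cdc45 and GINS, and polymerases, primase, the Pcna clamp and its loader then copy the strands. Many of these genes are transcribed in late G1 by E2F factors, and in osteoblast cultures proliferation is known to slow as the cells mature.

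The upstream sequences of the 4 genes that passed the test below, and of Mcm5 for contrast, are shown because E2F factors are known to act there. They are the 250 bases before the annotated start of transcription, from RefSeq on GRCm38.p6. Capitals mark E2F letters (TTTCCCGC, TTTGGCGC or TTTCGCGC, on either strand) and the CCAAT box (CCAAT, or ATTGG where it lies on the other strand), and overlapping matches are run together. The windows are chr1:128359706-128359955, minus strand, for Mcm6, chr10:128705052-128705301, minus strand, for Cdk2, chr7:102441445-102441694, plus strand, for Rrm1, chr7:38107491-38107740, minus strand, for Ccne1, and chr8:75109259-75109508, plus strand, for Mcm5.
Mcm6: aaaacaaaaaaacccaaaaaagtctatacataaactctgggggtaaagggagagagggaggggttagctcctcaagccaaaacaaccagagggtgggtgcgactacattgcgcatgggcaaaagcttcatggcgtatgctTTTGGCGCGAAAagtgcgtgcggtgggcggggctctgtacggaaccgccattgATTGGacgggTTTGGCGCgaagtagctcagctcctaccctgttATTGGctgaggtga
Cdk2: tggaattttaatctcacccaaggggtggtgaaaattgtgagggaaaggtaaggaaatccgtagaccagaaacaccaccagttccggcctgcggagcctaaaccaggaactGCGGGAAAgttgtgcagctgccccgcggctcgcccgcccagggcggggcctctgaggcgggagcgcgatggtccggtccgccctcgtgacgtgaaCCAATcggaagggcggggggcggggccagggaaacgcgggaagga
Rrm1: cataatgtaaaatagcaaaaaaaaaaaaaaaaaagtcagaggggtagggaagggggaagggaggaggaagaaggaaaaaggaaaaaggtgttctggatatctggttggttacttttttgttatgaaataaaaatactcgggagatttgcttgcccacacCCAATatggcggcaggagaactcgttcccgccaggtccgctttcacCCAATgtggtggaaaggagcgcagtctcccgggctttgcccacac
Ccne1: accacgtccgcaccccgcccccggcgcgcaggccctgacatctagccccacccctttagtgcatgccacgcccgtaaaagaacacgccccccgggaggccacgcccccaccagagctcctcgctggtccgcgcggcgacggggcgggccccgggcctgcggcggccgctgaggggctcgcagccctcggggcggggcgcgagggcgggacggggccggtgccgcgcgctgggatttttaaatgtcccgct
Mcm5: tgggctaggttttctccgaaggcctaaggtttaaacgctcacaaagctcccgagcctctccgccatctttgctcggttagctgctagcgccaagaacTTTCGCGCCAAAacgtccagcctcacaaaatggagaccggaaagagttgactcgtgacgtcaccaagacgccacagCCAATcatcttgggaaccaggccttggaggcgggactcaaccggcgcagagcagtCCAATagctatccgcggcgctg

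Mcm6 held 3 E2F matches, starting at -110, -106 and -47 from the start site, of which the first and second overlap on opposite strands. Cdk2 held 1, at -140 on the opposite strand, and Mcm5 held an overlapping pair at -153 and -149. Rrm1 and Ccne1 held none of these letters in their windows, and Rrm1 had 2 CCAAT boxes. Over all members, 35 had a window in the RefSeq table, with 41 windows in all. The E2F letters were in 10 of the 41 windows (24.4%), against 1.53% of the 32851 windows of all genes. CCAAT was in 58.5% of member windows, against 33.8% of all windows. The CHR letters (TTTGAA, on either strand), known from promoters of late cell cycle genes, were in 9.76% of member windows, against 16% of all. Member windows also held more G and C, with a median of 59.6%, against 52.4% over all windows. E2F letters were present in 2 of the 4 members that passed the test and in 8 of the 30 other measured members with a window. A match is a match of letters and does not show that a factor binds.

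The arrays were alike in overall signal. The median signal per array was 16.4, 16.9 and 16.2 in AA-treated cells, against 14.9, 17.7 and 15.2 in control cells. Correlations between arrays of the same group were 0.978 to 0.990 over probe sets above the median. The 3' to 5' ratio of Gapdh was 0.791 to 0.799 in AA-treated cells and 0.807 to 0.920 in control cells, and that of actin was 1.35 to 1.45 in AA-treated cells and 1.39 to 1.79 in control cells, with control replicate 3 highest in each. Of 13 osteoblast markers listed, 9 were measured, and their summed signal was 31160, 26380 and 22453 in AA-treated cells, against 19932, 16304 and 17196 in control cells. Ibsp, which encodes bone sialoprotein, and Col1a1, the alpha 1 chain of type I collagen, were bright on every array. Col1a1 and Col1a2 were the brightest of the 9 on every array, so they weigh most in the sum. Their log2 fold changes were 0.11 and 0.04. Phex and Dmp1 were dim, at mean signals of 17.3 and 31.2 in AA-treated and 16.2 and 6.41 in control cells. Leukocyte, endothelial, adipocyte and myoblast marker sums lay between 19.3 and 134 on all arrays, the chondrocyte sum was 464 to 558 in AA-treated and 347 to 412 in control cells, and the defining leukocyte markers Ptprc and Cd3e did not exceed 4.52 on any array.

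At day 5, 4 of the 43 measured genes were lower in AA-treated than in control cells and 0 were higher (limma with a replicate block, Benjamini-Hochberg adjusted p under 0.05 over all 45037 probe sets). They were Rrm1, Mcm6, Ccne1 and Cdk2. Over all genes read the same way, 3.85% were called lower and 4.07% higher. At an unadjusted limma p under 0.05, 17 members were lower, where 12.9% of all genes were, and 1, Gins1, was higher, where 10.7% were. The log2 fold change was below 0 in 34 members and above 0 in 9, and its median was -0.26, against -0.02 over all genes, of which 52.4% were below 0. With all probe sets of a gene averaged, the members' median was -0.11. With no replicate block, 1 member was called lower, Rrm1, where 3.67% of all genes were, so 3 of the 4 calls rest on the block. Without the mean-variance trend in limma, and by the methods' t-test, 0 members passed adjustment, and 0 of all 45037 probe sets did in either direction. At an unadjusted p under 0.05, 4 members were lower by each of these tests, and the share of all genes was not counted. In these bulk samples, fewer cells in S phase and less of these RNAs per cell cannot be told apart.

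**Figure D1:**
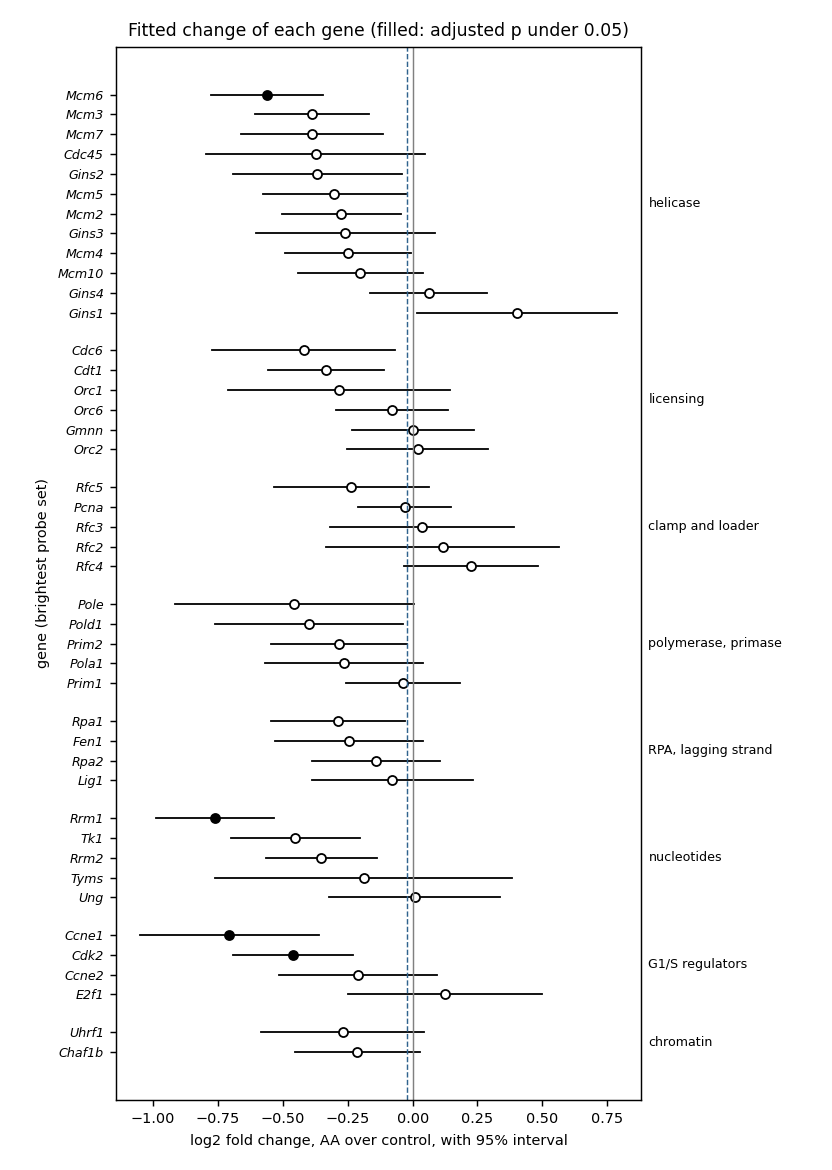
Log2 fold change, AA over control (x axis), of the 43 genes by role (y axis), each read by its brightest probe set, with limma's 95% interval as the line and filled points for adjusted p under 0.05. The dashed line is the median of all genes at -0.02, and the 4 filled points, Mcm6, Rrm1, Ccne1 and Cdk2, all lie below 0.

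Rrm1, the large subunit of ribonucleotide reductase, which makes deoxynucleotides, had the lowest log2 fold change. Its signal was 503, 756 and 696 in AA-treated cells, against 932, 1061 and 1333 in control cells. Every AA-treated array lay below every control array. The log2 fold change was -0.76 (SE 0.10, limma adjusted p = 0.00459, 0.0306 with no replicate block), with pair differences of -0.86, -0.50 and -0.94. Among the 43 genes it alone kept its call with no replicate block. It also kept the call without each replicate pair. The Rrm1 call was lost by the mean of its probe sets (-0.47, limma adjusted p = 0.390) and without the mean-variance trend (0.396). It was also lost without AA-treated replicate 1, 2 or 3 or control replicate 2 or 3, with no replicate block (limma adjusted p from 0.0532 to 0.0984). A further Rrm1 probe set, at mean signals of 210 and 252 in AA-treated and control cells, gave -0.24 (limma adjusted p = 0.645), and the last, at 1.30 and 1.22, was dim in both and gave -0.42.

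Rrm2, the small subunit of the same enzyme, had signals of 1119, 1590 and 1738 in AA-treated cells, against 1636, 1958 and 1870 in control cells. The groups overlapped, and the brightest probe set gave -0.35 (SE 0.09, limma adjusted p = 0.0750). A second Rrm2 probe set, at mean signals of 561 in AA-treated and 776 in control cells, passed the test at -0.47 (limma adjusted p = 0.0160, 0.285 with no replicate block), and the third, at 296 and 305, stood at -0.05 (limma adjusted p = 0.909). Tk1, thymidine kinase of the salvage pathway, had signals of 373, 570 and 579 in AA-treated cells, against 649, 691 and 746 in control cells. Its groups did not overlap, and its log2 fold change of -0.45 (SE 0.11, limma adjusted p = 0.0534) missed the threshold. Tyms, thymidylate synthase, was dim at 26.3, 38.7 and 30.6 in AA-treated cells, against 37.8, 32.0 and 38.0 in control cells, with the widest error of all members (SE 0.25). Ung, which removes uracil from DNA, differed by 0.01 (95% interval -0.32 to 0.34).

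Mcm6, a subunit of the Mcm2-7 helicase, was the only helicase gene whose brightest probe set passed. Its signal was 896, 1387 and 1406 in AA-treated cells, against 1564, 1830 and 1848 in control cells. All 3 AA-treated arrays lay below all 3 control arrays. The log2 fold change was -0.56 (SE 0.09, limma adjusted p = 0.0131, 0.0938 with no replicate block), with pair differences of -0.82, -0.46 and -0.40. It kept its call without each replicate pair, and without AA-treated replicate 1 alone, with no replicate block, it was at -0.35 (limma adjusted p = 0.126). The Mcm6 call was lost by the mean of its probe sets (-0.11, limma adjusted p = 0.837) and without the mean-variance trend (0.419). Leaving out any single array, with no replicate block, also lost it (limma adjusted p from 0.0885 to 0.251). The next Mcm6 probe set, which carries the suffix x_at for possible cross-hybridisation, gave -0.28 (limma adjusted p = 0.447).

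The other 5 subunits of the ring all had fold changes below 0 without passing by their brightest probe set. Mcm3 had signals of 567, 872 and 961 in AA-treated cells, against 900, 1037 and 1171 in control cells, and a log2 fold change of -0.39 (SE 0.10, limma adjusted p = 0.0590). Mcm7 had 1059, 1430 and 1603 in AA-treated cells, against 1795, 1642 and 1734 in control cells, with groups that did not overlap and -0.39 (limma adjusted p = 0.120). Dimmer probe sets of these genes did pass. For Mcm3 it was the probe set at mean signals of 235 in AA-treated and 342 in control cells, with -0.53 (limma adjusted p = 0.0442, 0.201 with no replicate block). For Mcm7 there were 2, with -0.44 and -0.51 (limma adjusted p = 0.0491 and 0.0426, 0.104 and 0.107 with no replicate block), both with suffixes for shared or cross-hybridising probes. Such suffixes also mark the brightest probe sets of Mcm3, Mcm5, Mcm7, Gins2, Pold1, Rrm2 and Ccne1. The dimmer Mcm3 and Rrm2 probe sets that passed do not carry them. The remaining Mcm3 probe sets gave -0.32, 0.07 and 0.44, and the remaining Mcm7 one gave -0.34. Mcm2, Mcm4 and Mcm5 stood at -0.28, -0.25 and -0.30, with limma adjusted p of 0.188, 0.265 and 0.231. Their next probe sets, at mean signals of 493, 741 and 410 in AA-treated and 493, 769 and 430 in control cells, gave 0.03, -0.05 and -0.07. The groups of these 3 genes overlapped, since AA-treated replicates 2 or 3 reached the control values, as with 1793 and 2016 for Mcm4 in AA-treated cells, against 1721, 1881 and 2061 in control cells.

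The 6 genes for Cdc45, Mcm10 and the GINS subunits had fold changes on both sides of 0, and 0 were called (limma, with Gins2 lower and Gins1 higher at an unadjusted p under 0.05). Cdc45, which joins the ring in the active helicase, had signals of 57.8, 106 and 110 in AA-treated cells, against 112, 117 and 119 in control cells, and -0.37 (SE 0.18, limma adjusted p = 0.343). Mcm10, which acts in helicase activation, stood at -0.20. Of the GINS subunits, Gins2 and Gins3 stood at -0.37 and -0.26, Gins4 at 0.06 and Gins1 at 0.40. Gins1 had the highest fold change of all 43 genes, with signals of 247, 465 and 470 in AA-treated cells, against 283, 269 and 334 in control cells. Its AA-treated replicate 1 was below every control array and the other two were above all of them, and the call was not reached (SE 0.17, limma adjusted p = 0.255). Without AA-treated replicate 1, in a fit with no replicate block, Gins1 was at 0.70 (limma adjusted p = 0.0264).

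The regulators of S phase entry gave the remaining calls. Ccne1, cyclin E1, had signals of 100, 171 and 157 in AA-treated cells, against 213, 217 and 267 in control cells. No AA-treated array reached a control array. The log2 fold change was -0.71 (SE 0.15, limma adjusted p = 0.0345, 0.0767 with no replicate block), read by a probe set with the x_at suffix, and the other Ccne1 probe set gave -0.61 (limma adjusted p = 0.0596). The Ccne1 call was lost without replicate 1 of each group (limma adjusted p = 0.0829) and without replicate 3 (0.0559). Cdk2, the kinase partner of cyclin E, had signals of 216, 237 and 281 in AA-treated cells, against 275, 336 and 435 in control cells. Its groups overlapped, since AA-treated replicate 3 exceeded control replicate 1, but each pair was lower, at -0.31, -0.46 and -0.62. The log2 fold change was -0.46 (SE 0.10, limma adjusted p = 0.0377, 0.166 with no replicate block), and by the mean of its probe sets, which gives the dim one below equal weight, the value was 0.78. The Cdk2 call was lost without replicate 2 of each group (limma adjusted p = 0.181) and without replicate 3 (0.108). Without control replicate 3 alone, the array with the highest 3' to 5' ratios, and with no replicate block, Cdk2 was at -0.29 (limma adjusted p = 0.348). Ccne2, cyclin E2, stood at -0.21 (limma adjusted p = 0.471), and E2f1, an activating E2F factor, at 0.12 (95% interval -0.25 to 0.50).

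**Figure D2:**
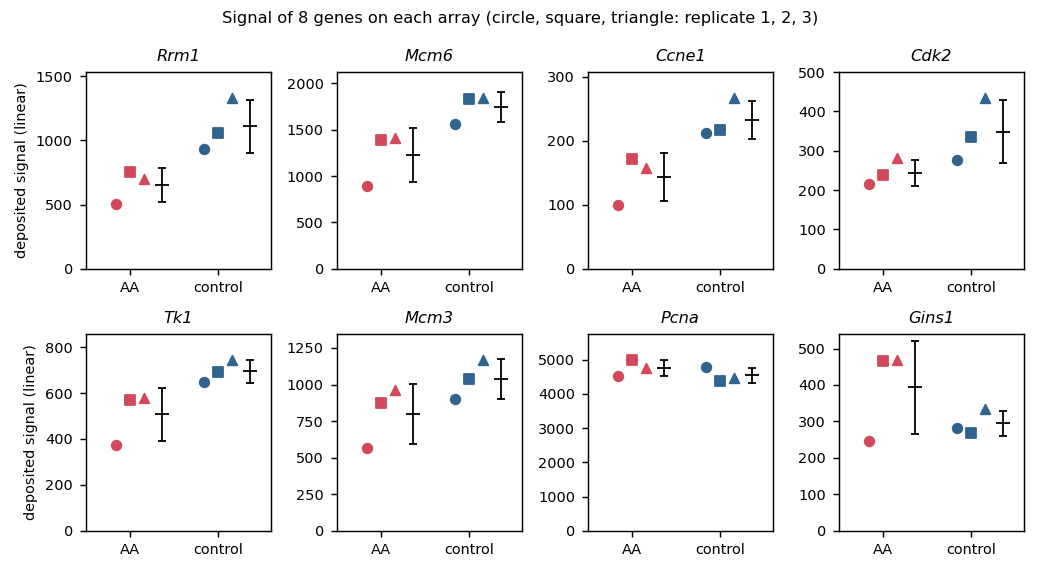
Deposited signal on a linear axis (y) in AA-treated (left) and control (right) cells for 8 genes, with each array as a point and the mean ± SD beside it (n = 3 each). Rrm1, Mcm6, Ccne1 and Tk1 have no AA-treated point at or above a control point, while for Pcna and Gins1 the groups overlap.

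Of the 6 origin licensing genes, 0 were called, and 2, Cdc6 and Cdt1, were lower at an unadjusted limma p under 0.05. Cdc6, which loads the ring, had signals of 128, 215 and 245 in AA-treated cells, against 245, 263 and 266 in control cells, and -0.42 (SE 0.15, limma adjusted p = 0.191). Cdt1, its partner in loading, had 944, 1260 and 1305 in AA-treated cells, against 1428, 1418 and 1480 in control cells. The Cdt1 groups did not overlap, and the log2 fold change was -0.33 (SE 0.10, limma adjusted p = 0.105). Gmnn, geminin, the inhibitor of Cdt1, was at 0.00 (95% interval -0.23 to 0.24). Of the origin recognition complex, Orc1 stood at -0.28, Orc6 at -0.08 and Orc2 at 0.02. Orc1 was dim, at mean signals of 41.8 in AA-treated and 51.3 in control cells (limma adjusted p = 0.494). Its other probe set, at 40.0 and 30.2, went the other way, at 0.43 (limma adjusted p = 0.370).

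The sliding clamp and its loader had a median log2 fold change of 0.04 over 5 genes, and 0 were called or had an unadjusted limma p under 0.05. Pcna, the clamp, had signals of 4518, 5002 and 4765 in AA-treated cells, against 4797, 4369 and 4462 in control cells. The groups overlapped, and the log2 fold change was -0.03 (SE 0.08, 95% interval -0.21 to 0.15), the smallest error of the 43 genes. The sign for Pcna turned with signals as deposited, at 0.068, and with median centring, at 0.013. The clamp loader genes Rfc2, Rfc3, Rfc4 and Rfc5 stood at 0.12, 0.04, 0.23 and -0.24, with limma adjusted p from 0.352 to 0.945.

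All 5 polymerase and primase genes had fold changes below 0, and 0 passed (limma adjusted p from 0.226 to 0.899), with 2, Pold1 and Prim2, lower at an unadjusted p under 0.05. Pole, the catalytic subunit of polymerase epsilon, had signals of 91.1, 160 and 185 in AA-treated cells, against 201, 203 and 179 in control cells, and -0.46 (SE 0.20, limma adjusted p = 0.285), the lowest of the genes not called. Pold1, that of polymerase delta, had 133, 222 and 230 in AA-treated cells, against 252, 234 and 280 in control cells, with groups that did not overlap and -0.40 (limma adjusted p = 0.226). Pola1, that of polymerase alpha, stood at -0.27, and the primase subunits Prim1 and Prim2 at -0.04 and -0.28. Of the genes for single-stranded DNA binding and lagging strand processing, Rpa1 stood at -0.29, Rpa2 at -0.14, the flap nuclease Fen1 at -0.25 and the ligase Lig1 at -0.08 (limma adjusted p from 0.221 to 0.836). Uhrf1, which guides DNA methylation at forks, and Chaf1b, a CAF-1 subunit, stood at -0.27 and -0.21 (limma adjusted p = 0.360 and 0.340).

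The genes were spread unevenly over the replicates, and AA-treated replicate 1 stood apart. It held the lowest of the 6 values for 40 of the 43 genes (93.0%), against 21.0% of all genes. It lay below the other two AA-treated arrays for 42 genes (97.7%, against 35.3% of all genes) and below all control arrays for 40 (93.0%, against 32.5% of all genes). AA-treated replicate 2 lay below all control arrays for 24 genes (55.8%, against 31.5% of all genes). AA-treated replicate 3 did so for 11 (25.6%), a smaller share than the 31.6% of all genes. The median member stood at -0.61, -0.13 and -0.02 on the 3 AA-treated arrays relative to the control mean (log2), against -0.07, 0.00 and 0.06 on the control arrays, whereas the median of all genes was within 0.03 of 0 on each array. Within the same-numbered pairs the median difference was -0.55, -0.11 and -0.07, against -0.0067, -0.014 and -0.044 over all genes. In these pairs 42, 32 and 26 members were lower (97.7%, 74.4% and 60.5%), against 50.5%, 51.0% and 53.7% of all genes, so that pair 3 was near the background. Of the 43 genes, 21 (48.8%, against 22.8% of all genes) were highest on control replicate 3, the array with the highest 3' to 5' ratios. The part of RNA quality in this was not tested.

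**Figure D3:**
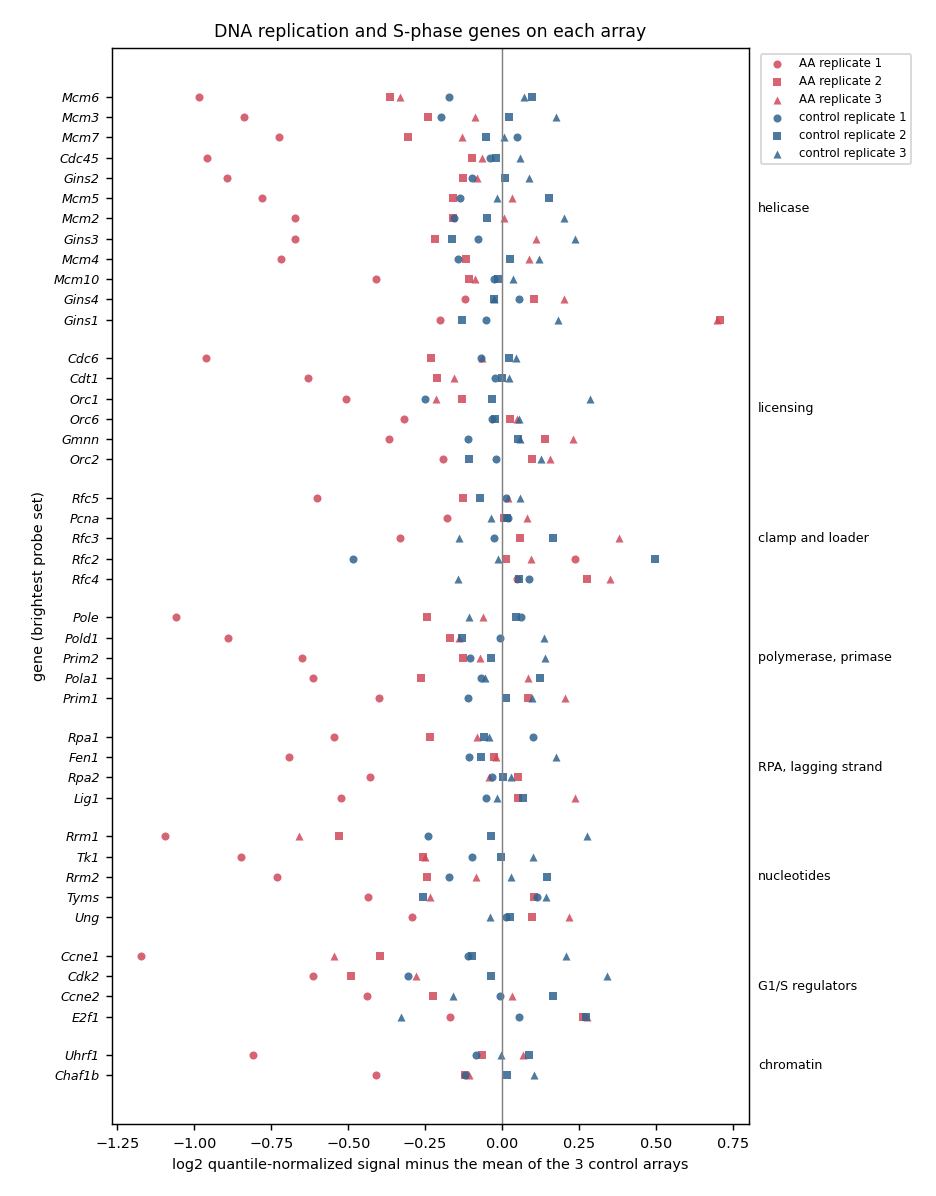
Log2 quantile-normalized signal minus the mean of the 3 control arrays (x axis) for the 43 genes by role (y axis), red for AA-treated and blue for control arrays, with a marker shape for each replicate. The red circles, AA-treated replicate 1, are leftmost for 40 genes, while the red triangles, replicate 3, lie left of all blue points for 11 (25.6%, against 31.6% of all genes).

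The values spread more widely over the AA-treated than over the control arrays. The median range over the 3 AA-treated arrays was 0.60, against 0.23 over the control arrays, while over all genes it was 0.43 and 0.44. AA-treated replicates 2 and 3 differed by a median of 0.12. The lowest value fell on AA-treated replicate 1 for all 12 helicase genes, all 6 licensing genes, all 5 polymerase and primase genes, and 3 of the 5 clamp and loader genes. Without replicate 1 of each group the median member log2 fold change was -0.11, with Mcm6, Rrm1 and Cdk2 called lower and Gins1 higher at 0.68 (limma adjusted p = 0.0117). Without AA-treated replicate 1 alone and with no replicate block, the median was -0.08, 0 members were called lower and Gins1 was called higher. In that fit 6 members were lower and 2 higher at an unadjusted limma p under 0.05, and the share of all genes was not counted.

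AA-treated replicate 1 was also the array with the highest signal for all 9 osteoblast markers measured. Ifitm5, an osteoblast membrane protein, had signals of 3729, 2017 and 1704 in AA-treated cells, against 226, 87.7 and 61.1 in control cells, and Ibsp had 5583, 4719 and 4118 in AA-treated cells, against 2285, 1341 and 1268 in control cells. Control replicate 1 was the highest control array for 7 of the 9. Ifitm5, Ibsp, Alpl and Pth1r were called higher, while Sp7, Col1a1, Col1a2, Phex and Dmp1 were not called, with Phex at -0.56. The part that the osteoblast marker level has in the replication gene values was not tested. The leukocyte marker Csf1r moved too, at 104, 74.6 and 83.6 in AA-treated cells, against 23.9, 24.7 and 25.0 in control cells, while the other 5 leukocyte markers were dim. Of the chondrocyte markers, Col2a1, type II collagen, was higher, at 242, 327 and 350 in AA-treated cells, against 133, 167 and 114 in control cells (1.18, limma adjusted p = 0.00352). Sox9 went the other way without a call, at 172, 170 and 163, against 179, 210 and 272 in control cells (-0.33, limma adjusted p = 0.283). Matn3 stood at 0.26 with no call, and Acan and Col10a1 were dim. The part of these leukocyte and chondrocyte markers in the replication gene values was not tested.

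Counted array by array on the normalized scale, groups did not overlap for 10 of the 43 genes (23.3%) with AA below, against 15.1% of all genes, and for 0 with AA above, against 13.0%. The 10 were Mcm6, Mcm7, Mcm10, Cdc45, Cdt1, Pold1, Rpa1, Rrm1, Tk1 and Ccne1, and all but Rpa1 also held on the deposited signals, a count of 9. AA-treated replicates 2 and 3 both lay below all control arrays for 10 members (23.3%), against 20.05% of all genes. Leaving AA-treated replicate 1 out of the count thus brought the share of all genes nearer to that of the members. With 3 arrays against 3, an exact two-sided permutation test of a single gene cannot go below p = 0.1. Of the 43 genes, 22 (51.2%) were lower in all 3 same-numbered pairs, against 23.8% of all genes, and 0 were higher in all 3, against 20.3%. By role, 9 of 12 helicase genes and 3 of 6 licensing genes were lower in every pair, against 1 of 5 clamp and loader genes.

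Over all 92 probe sets of the members, 8 were lower in AA-treated cells and 0 higher, where 2.50% and 2.71% of all 45037 probe sets were. These 8 covered 7 genes, adding Mcm3, Mcm7 and Rrm2 to those called by the brightest probe set. There were 11 genes with a single probe set and 32 with more. Of the 49 probe sets that were not the brightest, 30 had a negative fold change, with a median of -0.09. Split at a mean signal of 100, a value chosen after the data were seen, the 25 brighter ones had 20 negative values and a median of -0.24, and the 24 dimmer ones had 10 negative values and a median of 0.09. The dim Cdk2 probe set, at mean signals of 1.68 in AA-treated and 0.669 in control cells, gave 2.01 (limma adjusted p = 0.374). Probe sets that differ within a gene can read different transcripts or share signal with related ones, which the signals do not resolve.

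**Figure D4:**
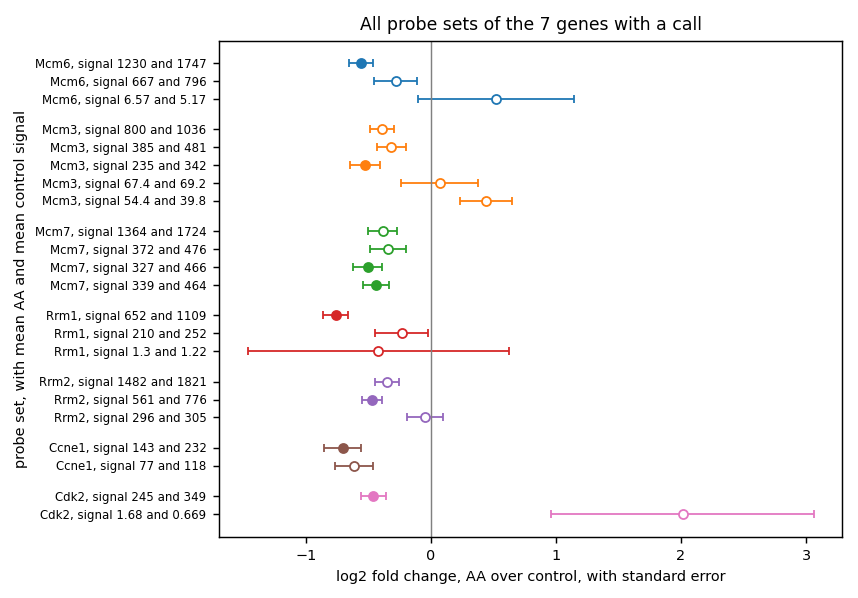
Log2 fold change, AA over control, with its standard error (x axis) for the 22 probe sets of the 7 genes with a call on any probe set (y axis, with the mean AA-treated and mean control signal), filled where adjusted p was under 0.05. The filled points all lie below 0, and the dim probe sets of Mcm6, Rrm1 and Cdk2 have the wide error bars.

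The rest of the pathway was followed with 6 further lists, of other fork proteins, nucleotide supply, G1/S regulators, chromatin assembly, replication-linked repair and mitosis, with 125 genes measured. Of these 15 were lower and 1 was higher in AA-treated cells, against the same 3.85% and 4.07% of all genes. With no replicate block, 6 were lower and 1 higher. Of the genes named here, Clspn, Ctps, E2f6, Skp2, Brca2 and Mki67 kept their calls in that fit, and Ticrr, Dbf4, Recql, Slbp, Exo1, Brca1, Ube2c, Tpx2 and Cenpe did not (limma adjusted p from 0.0587 to 0.321). Other fork proteins had 5 of 39 lower and a median of -0.14. Among them were Clspn, claspin, which relays fork stress (-0.59, limma adjusted p = 0.0151), Ticrr, needed for origin firing (-0.85, 0.0331), Dbf4, the activator of the Cdc7 kinase (-0.38, 0.0418), and the helicase gene Recql (-0.45, 0.0466). Nucleotide supply had 1 of 14 lower, the CTP synthase gene Ctps (-0.48, limma adjusted p = 0.0165), and a median of -0.23. Chromatin assembly had 1 of 12 lower, Slbp, which binds the ends of histone mRNAs (-0.38, limma adjusted p = 0.0327), and a median of -0.19.

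G1/S regulators had 1 lower and 1 higher of 22, and a median of -0.18. Each count is 4.55% of the list, near the 3.85% lower and 4.07% higher over all genes. E2f6, a repressive E2F factor, was lower, at 165, 169 and 194 in AA-treated cells, against 253, 280 and 292 in control cells (-0.61, limma adjusted p = 0.0113). Skp2, part of the ligase that marks Cdkn1b for destruction, was higher, at 453, 491 and 535 in AA-treated cells, against 331, 386 and 404 in control cells (0.44, limma adjusted p = 0.0223). Replication-linked repair had 3 of 17 lower and a median of -0.35, with Brca2 at 105, 97.7 and 105 in AA-treated cells, against 164, 183 and 234 in control cells (-0.87, limma adjusted p = 0.0096), Exo1 at -0.57 and Brca1 at -0.55 (limma adjusted p = 0.0196 and 0.0391). Unlike most replication genes, Brca2 did not have AA-treated replicate 1 as its lowest array. Mitosis had 4 of 21 lower and a median of -0.22, including Ube2c, a ubiquitin-conjugating enzyme of mitotic exit, and the proliferation marker Mki67 at -0.52 and -0.46 (limma adjusted p = 0.0133 and 0.0305), and the spindle genes Tpx2 and Cenpe at -0.52 and -0.43 (limma adjusted p = 0.0185 and 0.0456). AA-treated replicate 1 was the lowest array for 29 of the 39 other fork genes, 8 of the 14 nucleotide supply genes, 12 of the 22 G1/S regulators, 11 of the 12 chromatin assembly genes, 14 of the 17 repair genes and all 21 mitosis genes.

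**Figure D5:**
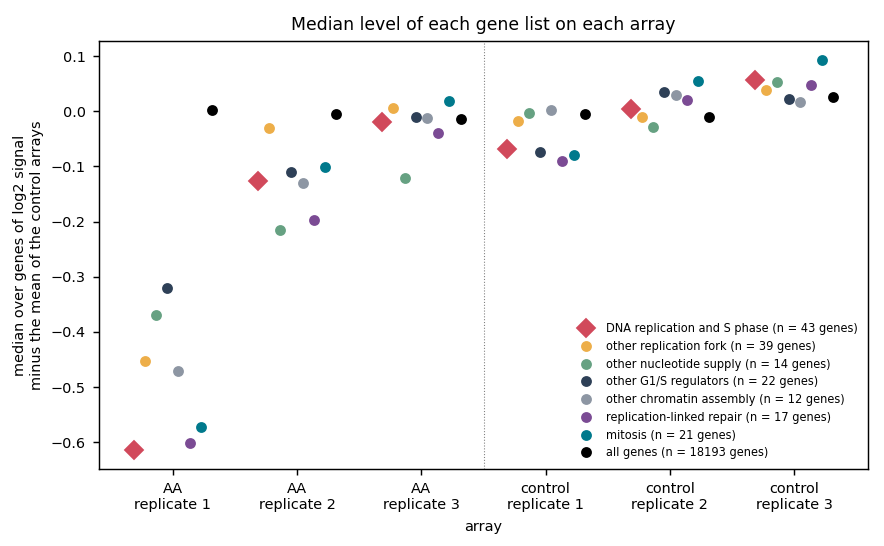
Median over the genes of each list of the log2 signal minus the control mean (y axis) on each array (x axis, AA-treated left, control right). The replication genes stand at -0.61 on AA-treated replicate 1, with all 6 further lists also below 0 there, and the median of all genes stays within 0.03 of 0.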

How the data were processed

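RNA of 3 AA-treated and 3 control MC3T3-E1 cultures was measured on 6 arrays. The authors deposited linear intensity values, which the submitters' processing notes credit to MAS5 with no version and which share a trimmed mean across arrays. GC-RMA and quantile normalization in Partek, described in the authors' methods for their own analysis, are not in these values. Detection calls were not used here, and folds of dim probe sets are not bounds.

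After 64 control probe sets were removed, log2 signals were quantile-normalized. A limma model (3.58.1, R 4.3.3) held the condition and, since the methods name paired tests, the replicate number as a block, with the mean-variance trend. Benjamini-Hochberg adjustment ran over 45037 probe sets, with a threshold of 0.05. The platform annotation assigned 34945 probe sets to 1 gene, 932 to several and 9160 to none, and those with 1 gene were used to name genes. The fit was tested on simulated data, and promoters were read from RefSeq (GRCm38.p6). Signal levels were set against each other to pick the brightest probe set, to sum markers and to tell dim from bright. They were not read as relative RNA amounts between genes. The number of arrays limits the precision.

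All members are reported, and of each further list up to 4 called genes per direction with the smallest p. The members and lists were chosen with earlier results of these data known. Alternatives left out the block or single arrays, or changed the normalization, the pseudocount (50), the filter on dim probe sets, the test, the threshold or the gene summary (probe sets averaged). Figures were drawn with matplotlib 3.10.9.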

Additional observations from a re-analysis of the deposited data

How the results depend on the processing

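The 4 members lower in AA-treated cells became 1 with no replicate block, 2 with a pseudocount of 50 and 7 among probe sets above the median signal. They became 2 at an unadjusted limma p under 0.01 with a fold of at least 1.5, and 1, Ccne1, with all probe sets of a gene averaged. They became 0 for limma without the mean-variance trend and for the methods' t-test, at p under 0.01 and after Benjamini-Hochberg adjustment. At an unadjusted p under 0.05, 4 were lower by each of these tests, with the share of all genes not counted. The 8 member probe sets lower became 1 with no replicate block, 3 with the pseudocount, 13 among probe sets above the median signal, 3 at the p and fold threshold, and 0 without the trend and by the methods' t-test. The 15 genes lower in the further lists became 6 with no replicate block, 7, 4 and 5 with the pseudocount, the p and fold threshold and the mean of probe sets, 5 by the methods' t-test at p under 0.01, and 0 without the trend and after its adjustment, and the 1 higher became 0 with median centring, without the trend, at the p and fold threshold and after the t-test's adjustment, and 2 at its p under 0.01. Over all probe sets, the 1219 higher and 1124 lower became 788 and 655 with the pseudocount, 706 and 736 by the methods' t-test at p under 0.01, and 0 in each direction without the trend and after the t-test's adjustment. They were 1089 and 1039 with no replicate block, and 1056 and 920 at the p and fold threshold. Among probe sets above the median signal they were 1568 and 1575, so calls rose there beyond the members too. By the mean of probe sets, groups did not overlap for 5 members, 14 were lower in all pairs and 1 was higher. The cause of these moves was not tested.

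With arrays left out (each pair, or each array with no replicate block), members lower ranged from 0 to 8, members higher from 0 to 1, member probe sets lower from 0 to 15 and higher from 0 to 1, genes of the further lists lower from 0 to 18 and higher from 0 to 1, and all probe sets higher from 380 to 1169 and lower from 339 to 994. The counts of 0 members lower came without AA-treated replicates 1, 2 and 3 and control replicates 2 and 3, each in a fit with no replicate block, which alone gives 1. The highest count, 8, came without replicate 3. The median member log2 fold change ranged from -0.39 to -0.08, below 0 throughout. That of the called members ranged from -0.90 to -0.60 for Rrm1, -0.68 to -0.35 for Mcm6, -0.91 to -0.47 for Ccne1 and -0.61 to -0.29 for Cdk2.

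Of the replicate numbers, the pairing was checked by correlating deviations from group means. This gave 0.182, 0.0251 and 0.0921 for the 3 pairs over probe sets above the median signal and 0.017, 0.0037 and 0.0099 over all. Above the median signal, the arrays numbered 1 and those numbered 3 correlated best with each other, and those numbered 2 did not. The check does not settle whether the numbers mark a pairing, and the replicate block rests on the paired tests that the methods name.

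Signs turned only for members without a call, except Cdk2. With signals as deposited the log2 fold change was -0.040 for Gmnn, -0.0096 for Orc2, 0.068 for Pcna and -0.013 for Ung. With median centring it was -0.095 for Gmnn, -0.064 for Orc2, -0.025 for Gins4, 0.013 for Pcna, -0.050 for Rfc3 and -0.068 for Ung. By the mean of probe sets, which weighs dim ones equally, it was 0.10 for Cdt1, 0.073 for Orc1, -0.073 for Orc2, -0.053 for Rfc3, 0.13 for Pola1, 0.023 for Prim1, 0.047 for Rpa2 and 0.78 for Cdk2. With arrays left out it ranged from -0.12 to 0.30 for E2f1, -0.021 to 0.18 for Gins4, -0.11 to 0.18 for Gmnn, -0.24 to 0.14 for Lig1, -0.073 to 0.13 for Orc2, -0.15 to 0.038 for Orc6, -0.10 to 0.054 for Pcna, -0.16 to 0.14 for Prim1, -0.19 to 0.42 for Rfc2, -0.21 to 0.22 for Rfc3, -0.24 to 0.0047 for Rpa2, -0.44 to 0.0014 for Uhrf1 and -0.12 to 0.16 for Ung. Of 817 member values under the alternatives, 705 kept direction and call, 48 lost a call, 12 gained one and 52 turned sign. Only the 4 called members could lose a call, so all 48 losses are theirs. Most of the 705 are members that stayed without a call. With 3 arrays a group and a median standard error of 0.12, small changes cannot be resolved.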
